A study of Mus musculus with 24 samples.

Results

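The 10 genes described here, Lep, Adipoq, Cfd, Retn, Plin1, Plin4, Cidec, Pnpla2, Fabp4 and Ucp1, encode hormones that fat cells secrete, proteins of their lipid droplet, and proteins that release, carry or burn fatty acids. They were chosen by symbol, and each symbol stood in 1 of the 55401 gene rows of the deposited count table. All 10 are protein coding, and all 10 passed the filter on low counts in every fit. C57BL6/J mice at 86 weeks or 16.5 weeks of age supplied the heart's left ventricle, a skeletal muscle and a kidney sample, and libraries were made of total RNA after removal of ribosomal RNA. Each age was represented by 4 mice, 2 female and 2 male, and each of the 8 mice gave all 3 tissues, so that 24 libraries formed 6 groups of 4. The labels give no treatment, transgene or pooling of animals, and they do not say which muscle or which portion of the kidney was taken. Libraries are named here by the mouse number in the labels: females 11 and 12 and males 14 and 17 at 86 weeks, and females 14 and 15 and males 19 and 20 at 16.5 weeks, number 14 being a different mouse at each age.

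Adipocytes store triglyceride in a large lipid droplet whose surface is coated by perilipins. Between meals the lipase ATGL, the product of Pnpla2, starts the breakdown of that triglyceride, and the released fatty acids are carried within the cell by FABP4. Adipocytes also signal to the rest of the body, with leptin, a hormone of energy stores that acts in the brain, and with adiponectin, a hormone linked to insulin sensitivity, whereas UCP1 is the mitochondrial uncoupling protein of brown and beige fat. Heart and skeletal muscle use fatty acids as fuel and make several of the same droplet and lipolysis proteins, and FABP4 is also made by capillary endothelium. In RNA from whole tissue, fewer cells of a type and less RNA per cell cannot be told apart.

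The 3 promoters printed here are those of the 2 hormone genes that the muscle comparisons turn on, leptin and adiponectin, and of Ucp1, whose level set 1 kidney library apart. Each runs 5′ to 3′ for 300 bases on the plus strand, 250 before the gene's start and 50 after it, as RefSeq gives it on GRCm38.p6. The windows are chr6:29059971-29060270 for Lep, chr16:23146286-23146585 for Adipoq and chr8:83290098-83290397 for Ucp1, and the capitals mark the matches described after them.
Lep: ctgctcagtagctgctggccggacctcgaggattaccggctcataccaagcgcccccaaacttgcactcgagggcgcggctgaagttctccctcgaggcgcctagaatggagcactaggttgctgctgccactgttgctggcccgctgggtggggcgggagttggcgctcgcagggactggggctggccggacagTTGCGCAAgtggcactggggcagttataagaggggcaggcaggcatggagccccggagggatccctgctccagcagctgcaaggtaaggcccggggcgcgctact
Adipoq: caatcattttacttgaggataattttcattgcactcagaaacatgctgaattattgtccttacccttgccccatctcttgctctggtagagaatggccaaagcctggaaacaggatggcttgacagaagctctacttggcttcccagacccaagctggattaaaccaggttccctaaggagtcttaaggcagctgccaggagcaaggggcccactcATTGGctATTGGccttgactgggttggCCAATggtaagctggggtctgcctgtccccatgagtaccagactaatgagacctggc
Ucp1: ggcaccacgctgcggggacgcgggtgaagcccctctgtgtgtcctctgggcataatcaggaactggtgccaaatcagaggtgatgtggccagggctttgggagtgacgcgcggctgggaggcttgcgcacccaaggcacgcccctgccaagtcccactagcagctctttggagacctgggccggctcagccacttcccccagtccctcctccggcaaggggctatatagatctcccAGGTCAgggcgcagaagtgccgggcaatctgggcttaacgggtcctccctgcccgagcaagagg
RefSeq's table held promoters for 9 of the 10 genes, 10 windows in all because Cidec had 2, and it held none for Fabp4. Each motif was searched on both strands. The palindrome TTGCGCAA, a core that C/EBP factors bind, occurred in the Lep window and in no other of these windows, and it occurred in 60 of all 32851 promoters of this length (0.183%). The pentamer CCAAT occurred at 3 places in the Adipoq window, once as CCAAT and at the other 2 places as ATTGG, its reading on the opposite strand. It was also in the Plin4 window and in 12289 of all promoters (37.4%). AGGTCA, a hexamer that nuclear receptors such as PPARγ bind, was in the Ucp1 window and in 5340 of all promoters (16.3%). The direct repeat AGGTCANAGGTCA was in 0 of the 10 windows and in 13 of all promoters (0.0396%), and the E-box CACGTG was in 0 of the 10 windows and in 2349 of all promoters (7.15%). These matches describe the printed letters only.

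The total count per library ran between 52602585 and 103797551. The tissue labels matched their markers: summed cardiomyocyte markers lay between 42680 and 61230 CPM (counts scaled to a common library size) in left ventricle, against at most 673.6 CPM in muscle and 41.8 CPM in kidney. Summed skeletal fibre markers lay between 117700 and 182300 CPM in muscle, against at most 949.8 CPM in left ventricle and 26.6 CPM in kidney. Summed kidney markers lay between 9657 and 15350 CPM in kidney, against at most 112 CPM in muscle and 69.1 CPM in left ventricle. CPM values were scaled by TMM factors. A pair of libraries stood apart for the adipocyte genes: the kidney of female 15 and the muscle of male 20, both at 16.5 weeks. Most results that rest on either are given with and without it.

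The levels of the 10 genes were first set in order within each tissue, as CPM per kilobase of the longest coding transcript so that genes can be compared, with the SD over the 8 libraries of the tissue. In left ventricle the order was headed by Fabp4, at 248.3 ± 31.8, followed by Plin4 at 39.2 ± 5.25 and Pnpla2 at 29.7 ± 4.45. The other 7 genes averaged at most 1.56 ± 1.42 (Cfd) in left ventricle, with Adipoq at 0.522 ± 0.192, Lep at 0.460 ± 0.104 and Ucp1 at 0.269 ± 0.110. Fabp4 and Plin4 were separated from their neighbours in that order by more than 1 SD, and the genes below Pnpla2 overlapped one another. In skeletal muscle Fabp4 also had the highest mean, at 94.5 ± 62.3, with Cfd at 51.5 ± 49.6, Plin4 at 44.6 ± 12.2, Pnpla2 at 13.7 ± 3.08 and Adipoq at 12.9 ± 13.3. Plin1 at 6.21 ± 5.62, Retn at 5.54 ± 5.44, Cidec at 4.60 ± 3.88 and Lep at 3.92 ± 3.53 followed in muscle, with Ucp1 lowest at 0.303 ± 0.0866. Plin4 exceeded Pnpla2 by more than their SDs, and the other neighbours in the muscle order between Fabp4 and Lep differed by less. In kidney Fabp4 averaged 38.2 ± 35.6, Cfd 14.4 ± 31.3, Pnpla2 10.6 ± 2.29 and Lep, the lowest, 0.468 ± 0.147. The longest coding transcript of Fabp4 has 896 bases, against 4489 over all its exons. Its place above Cfd in muscle and kidney therefore depends on the length used. In kidney the SD exceeded the mean for 6 of the 10 genes (Adipoq, Cfd, Retn, Plin1, Cidec and Ucp1), and for Ucp1 the mean was 3.08 and the median 0.275 CPM per kilobase.

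The low levels were set beside those of 1103 olfactory receptor genes, a family of nasal sensory receptors. The 95th percentile of those genes was 0.303 CPM per kilobase for left ventricle, 0.354 for muscle and 0.257 for kidney. Ucp1 lay above it in 2 of 8 left ventricles, 1 of 8 muscles and 3 of 8 kidneys. Adipoq lay above it in 7 of 8 left ventricles, 8 of 8 muscles and 6 of 8 kidneys. The mean of Ucp1 exceeded 92.02% of that family in left ventricle and 90.7% in muscle, so its level was low but above most of those genes.

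**Figure D1:**
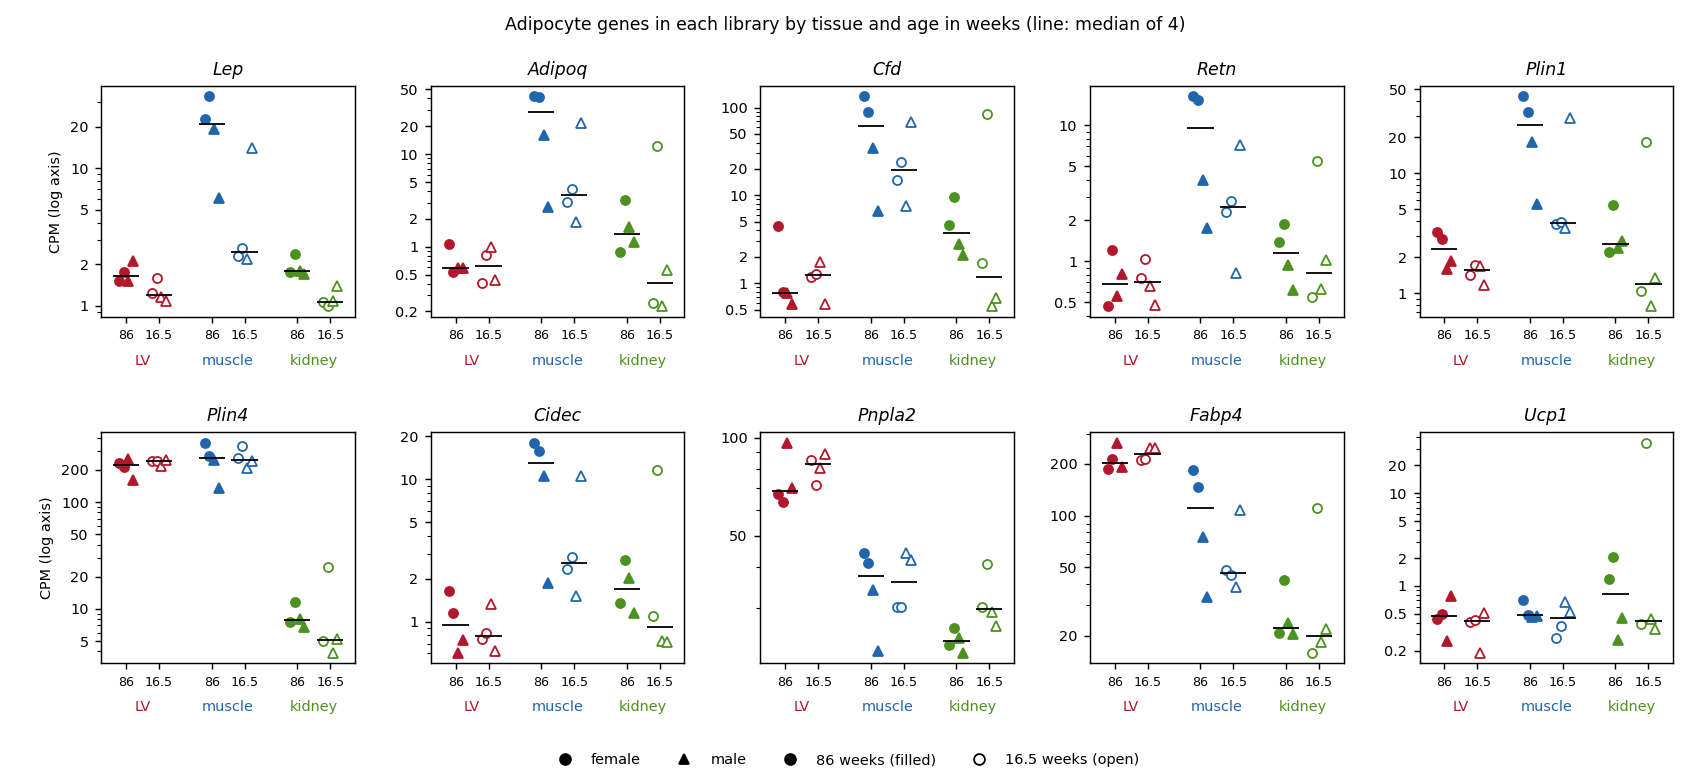
CPM of each of the 10 genes in every library (log axis), one panel per gene, with left ventricle, skeletal muscle and kidney along the axis, filled points for 86 weeks left of open points for 16.5 weeks, circles for females, triangles for males and a line at the median of 4. Lep and Adipoq reach 33.1 and 42.2 CPM in muscle, while Plin4 and Fabp4 are low in most kidneys, and 1 kidney at 16.5 weeks lies far above the others for Cfd (84.2 CPM) and Ucp1 (35.1 CPM).

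The secreted factors differed on average between skeletal muscle and the other 2 tissues, though some libraries overlapped. Lep, Adipoq, Cfd (adipsin, a serine protease of complement) and Retn (resistin, a hormone that mouse adipocytes secrete) were all higher in muscle than in left ventricle and than in kidney. Adipoq had a lowest, median and highest level of 1.85, 10.2 and 42.2 CPM in muscle, against 0.404, 0.585 and 1.06 CPM in left ventricle, and every muscle lay above every left ventricle. Its log2 difference, muscle minus left ventricle, was 4.36 ± 0.68 (SE; adjusted p = 7.73e-06, edgeR's quasi-likelihood test with Benjamini-Hochberg adjustment, as for all adjusted p-values here unless another tool is named). Kidney held 0.228, 1.01 and 12.2 CPM of Adipoq, and muscle minus kidney was 2.86 ± 0.62 (adjusted p = 3.83e-04), or 4.14 without the kidney of female 15. Lep stood at 2.18, 9.95 and 33.1 CPM in muscle, against 1.09, 1.51 and 2.11 CPM in left ventricle and 0.997, 1.56 and 2.38 CPM in kidney. The lowest muscle value of Lep exceeded every left ventricle, whereas 1 kidney, at 2.38 CPM, reached into the muscle range. Lep differed by 2.79 ± 0.34 between muscle and left ventricle (adjusted p = 1.33e-07) and by 2.80 ± 0.34 between muscle and kidney (adjusted p = 6.9e-08). Cfd held 6.74, 29.4 and 134.1 CPM in muscle, against 0.586, 0.987 and 4.52 CPM in left ventricle and 0.551, 2.47 and 84.2 CPM in kidney. The Cfd difference was 4.99 ± 0.74 for muscle minus left ventricle (adjusted p = 3.64e-06) and 2.80 ± 0.66 for muscle minus kidney (adjusted p = 9.51e-04), the second being 4.35 without the kidney of female 15. Retn differed by 2.84 ± 0.44 for muscle minus left ventricle and by 1.97 ± 0.42 for muscle minus kidney (adjusted p = 8.27e-06 and 3.37e-04). Without the mouse of male 20 these 4 genes still passed, with smaller differences: for muscle minus left ventricle 3.27 for Adipoq, 2.08 for Lep, 4.05 for Cfd and 1.97 for Retn, and for muscle minus kidney 1.72 for Adipoq, 2.18 for Lep, 1.73 for Cfd and 1.18 for Retn.

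The lipid droplet proteins did not follow one order. Plin1, the perilipin of the large adipocyte droplet, and Cidec, which fuses droplets into larger ones, were higher in muscle, as the secreted factors were. Plin1 held 3.51, 11.9 and 43.8 CPM in muscle, against 1.16, 1.71 and 3.23 CPM in left ventricle and 0.779, 2.30 and 18.3 CPM in kidney. Plin1 differed by 3.08 ± 0.53 for muscle minus left ventricle and by 2.17 ± 0.51 for muscle minus kidney (adjusted p = 3.5e-05 and 8.77e-04). Cidec differed by 2.88 ± 0.50 and 1.68 ± 0.47 in the same comparisons (adjusted p = 3.57e-05 and 0.00444). The lowest muscle value of Cidec, 1.52 CPM, lay below the 1.63 CPM in the left ventricle of old female 11. Without the mouse of male 20 the differences from left ventricle were 2.18 for Plin1 and 2.15 for Cidec, and those from kidney were 1.20 for Plin1 and 0.86 for Cidec, the last no longer passing (adjusted p = 0.122). Without the kidney of female 15 the differences from kidney were 3.07 for Plin1 and 2.46 for Cidec. Plin4, a perilipin of small droplets that striated muscle also makes, was abundant in both striated tissues. It held 134.1, 253.4 and 360.3 CPM in muscle and 159.9, 235.7 and 254.6 CPM in left ventricle, against 3.91, 7.19 and 24.7 CPM in kidney, so that no kidney approached either. Plin4 was higher in muscle by 4.88 ± 0.26 and in left ventricle by 4.72 ± 0.25, each against kidney (adjusted p = 3.52e-15 and 7.94e-15), and muscle minus left ventricle was 0.16 ± 0.22. Plin4 shares 17 exonic bases with Hdgfl2 on the opposite strand, and whether the counting used strand is not given in the sources used here.

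Fabp4 and Pnpla2 were highest in left ventricle. Fabp4 held 33.5, 61.3 and 183.6 CPM in muscle, against 187.3, 213.3 and 266.4 CPM in left ventricle, with no overlap, and the log2 difference of muscle minus left ventricle was −1.47 ± 0.31 (adjusted p = 4.58e-04). Against the 16.0, 21.3 and 110.4 CPM of kidney, Fabp4 was higher by 1.36 ± 0.31 in muscle and by 2.83 ± 0.33 in left ventricle (adjusted p = 7.51e-04 and 4.26e-08). Pnpla2 held 22.2, 37.7 and 44.4 CPM in muscle and 63.5, 76.2 and 96.5 CPM in left ventricle, against 21.9, 26.3 and 40.9 CPM in kidney. Left ventricle lay above both other tissues in every library. Pnpla2 was lower in muscle than in left ventricle by −1.11 ± 0.12 and higher in left ventricle than in kidney by 1.50 ± 0.13 (adjusted p = 3.65e-08 and 8.07e-11). For Pnpla2, muscle minus kidney was 0.40 ± 0.12 (adjusted p = 0.0106), and with the size factors of DESeq2 in place of TMM it was 0.34 (adjusted p = 0.0548). Summed markers of capillary endothelium, which also makes Fabp4, ran between 752.7 and 921.6 CPM in left ventricle, 125.2 and 257.3 CPM in muscle, and 263.7 and 384.2 CPM in kidney. All 12 of those markers were lower in muscle than in left ventricle, led by Kdr, a receptor of VEGF (−2.82), and their share in the Fabp4 difference was not tested.

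Ucp1 held 0.276, 0.481 and 0.698 CPM in muscle and 0.192, 0.435 and 0.788 CPM in left ventricle, and muscle minus left ventricle was 0.19 ± 0.56. Kidney held 0.264, 0.449 and 35.1 CPM, the highest in female 15 at 16.5 weeks. With that library Ucp1 was lower than in kidney by −1.65 ± 0.55 in muscle and by −1.84 ± 0.55 in left ventricle (adjusted p = 0.0166 and 0.00944). Without it the 2 values were −0.36 and −0.49 (adjusted p = 0.354 and 0.236). The mean of Ucp1 in kidney therefore rested on 1 mouse.

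Counted over the 10 genes, 8 passed for muscle against left ventricle, 6 higher and 2 lower, where 26.6% of all 46984 genes tested passed (11.3% higher and 15.4% lower). The median log2 difference of the 10 was 2.816, against 0.118 for all genes. For muscle against kidney all 10 passed, 9 higher and 1 lower, where 43.5% of all genes passed (21.4% higher and 22.1% lower), with a median of 2.072 against 0.234. Over 9 fits that left out a mouse or only the kidney of female 15, Pnpla2 (0.27 to 0.51) and Ucp1 (−2.0 to −0.32) each passed in 5. Cidec passed in 8 of those fits. Without the kidney of female 15, 9 passed, all but Ucp1, the share of all genes not being given for that fit. For left ventricle against kidney 5 passed, 3 higher (Plin4, Fabp4 and Pnpla2) and 2 lower (Ucp1 and Cfd), where 33.6% of all genes passed (14.3% higher and 19.3% lower), with a median of −0.888 against 0.095. Cfd was lower by −2.19 ± 0.69 in left ventricle than in kidney (adjusted p = 0.014), and by −0.59 without the kidney of female 15 (adjusted p = 0.461). Without that library the left ventricle and kidney comparison held 3 passing genes, Plin4, Fabp4 and Pnpla2, where 32.4% of all genes passed. It also held 3 without the mouse of male 14 or of male 17 at 86 weeks, and up to 7 without another mouse. For those fits the share of all genes passing is not given here. The remaining 5 did not pass with all libraries, and Lep, at 0.0048 ± 0.33, had the smallest difference. With the mouse as a block, 8, 9 and 4 genes passed in the same 3 comparisons, the share of all genes not being given here. Ucp1 was the gene that no longer passed for muscle minus kidney (−1.19, adjusted p = 0.0661), and Cfd the one for left ventricle minus kidney (−1.78 ± 0.73, adjusted p = 0.0684).

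**Figure D2:**
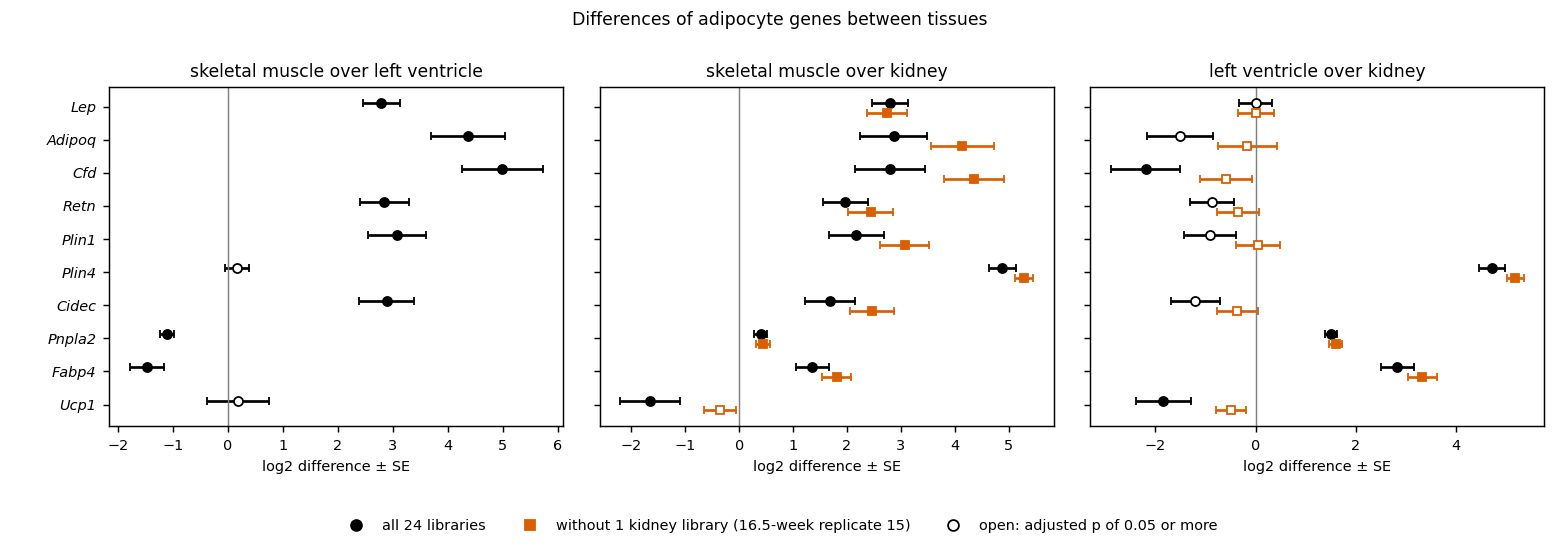
Log2 difference with its SE for the 10 genes in skeletal muscle over left ventricle, skeletal muscle over kidney and left ventricle over kidney, as black circles for all 24 libraries and orange squares without the kidney of female 15 at 16.5 weeks; open symbols have an adjusted p of 0.05 or more. Adipoq moves to 4.14 and Cfd to 4.35 for muscle over kidney without that library, and Ucp1 moves to −0.36.

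Other genes of fat biology were examined from lists. Of 23 genes of adipocyte identity and lipid synthesis, 12 were higher and 6 lower in muscle than in left ventricle (11.3% and 15.4% of all genes). They included Car3, a carbonic anhydrase that fat and muscle both make (8.18), Scd1, a fatty acid desaturase (4.58), Lpl, the lipase of circulating triglyceride (−4.62), and Cd36, a fatty acid transporter (−3.46). Of 14 further genes of the lipid droplet and lipolysis, 1 was higher and 11 were lower in muscle than in left ventricle (11.3% and 15.4% of all genes). The largest of these differences were in Plin5, the perilipin of oxidative tissues (−4.08), and Cidea, a relative of Cidec (−4.07). The same 14 genes gave 10 higher and 2 lower in left ventricle than in kidney (14.3% and 19.3% of all genes), with Plin5 at 4.13 and Cidea at 3.28. The droplet genes outside the 10 were thus mostly highest in left ventricle, unlike Plin1 and Cidec.

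The receptors of leptin and adiponectin were present in all 3 tissues. Cdh13, the T-cadherin that binds adiponectin, was higher by 3.04 in muscle than in kidney and by 3.57 ± 0.10 in left ventricle than in kidney. Adipor1, an adiponectin receptor, was higher in muscle by 0.94 than in left ventricle and by 1.34 than in kidney. Lepr, the leptin receptor, was lower in muscle by −0.63 than in left ventricle and by −1.41 than in kidney. Of 12 genes of thermogenic fat other than Ucp1, 2 were higher and 6 lower in muscle than in left ventricle (11.3% and 15.4% of all genes), among them Prdm16, a transcriptional regulator of brown fat (−1.79). The mitochondrial subunits Cox8b (7.03) and Cox7a1 (5.81), which heart and muscle also make, were the highest of the 6 that were higher in left ventricle than in kidney (14.3% of all genes), while Ucp1 itself was not higher there.

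Within skeletal muscle the adipocyte genes varied widely among mice. The highest muscle library held 22.8 times the lowest for Adipoq, 19.9 for Cfd, 19.7 for Retn, 15.2 for Lep, 12.5 for Plin1 and 11.8 for Cidec, but 2.69 for Plin4 and 2.0 for Pnpla2. In left ventricle the same ratio was 2.63 for Adipoq, 1.93 for Lep and 1.42 for Fabp4. In kidney it was 53.6 for Adipoq, 152.9 for Cfd and 133.1 for Ucp1, but 2.39 for Lep. Lep therefore varied with the other secreted factors in muscle but had a narrow range in kidney.

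Each other gene was set against Adipoq over the 8 libraries of a tissue on the log2 CPM scale, 27 relations in all, with two-sided exact permutation p-values adjusted over the 27. In muscle Cidec had r = 0.995 and rho = 1.0 (adjusted exact p = 0.000335 and 0.00067), and r stayed at 0.995 without the 2 mice farthest from the median of Adipoq. Plin1 had r = 0.975 and rho = 0.929, Fabp4 0.970 and 0.952, Retn 0.964 and 1.0, Cfd 0.962 and 0.976, and Lep 0.934 and 0.881. The adjusted exact permutation p-values of those 5 lay between 0.000335 and 0.0134 for r, and between 0.00067 and 0.0178 for rho. Without the 2 farthest mice their r lay between 0.878 (Lep) and 0.956 (Plin1). Plin4 (r = 0.520, rho = 0.690), Pnpla2 (0.551 and 0.476) and Ucp1 (0.350 and 0.333) did not pass in muscle, with adjusted exact p-values of 0.287, 0.260 and 0.478 for r. Over the 4 muscles of each age, given as a description with no test, Pnpla2 had r = 0.995 at 86 weeks and 0.216 at 16.5 weeks, and Plin4 had 0.958 and 0.0923. Plin4 and Pnpla2 are also made by muscle fibres, and Ucp1 was at low levels. Whether either bears on these relations was not tested.

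In kidney 7 of the 9 relations passed by r. Plin1 had r = 0.985 and rho = 0.976, Plin4 0.978 and 0.976, Cidec 0.927 and 0.905, Fabp4 0.924 and 0.881, and Cfd 0.918 and 0.905, with adjusted exact permutation p-values of at most 0.00529 for r and 0.0178 for rho. Without the 2 farthest kidneys, female 15 at 16.5 weeks and 1 other, r was 0.960 for Plin1, 0.947 for Plin4, 0.798 for Cidec, 0.883 for Fabp4 and 0.717 for Cfd. Retn had r = 0.891 with rho = 0.690 (adjusted exact p = 0.0087 and 0.144), and Ucp1 had r = 0.819 with rho = 0.524 (0.032 and 0.312), r being 0.527 for Ucp1 without the 2 farthest. Plin4 thus followed Adipoq in kidney, where its level was low, and did not pass in muscle. Lep had r = 0.204 and rho = 0.286 in kidney (adjusted exact permutation p = 0.712 and 0.615), and r = 0.976 without the 2 farthest libraries. In left ventricle 1 of 9 passed by r, Cfd, with r = 0.770 and rho = 0.667 (adjusted exact p = 0.0369 and 0.160), and r was 0.287 without the 2 farthest. That relation rested on those 2 libraries.

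**Figure D3:**
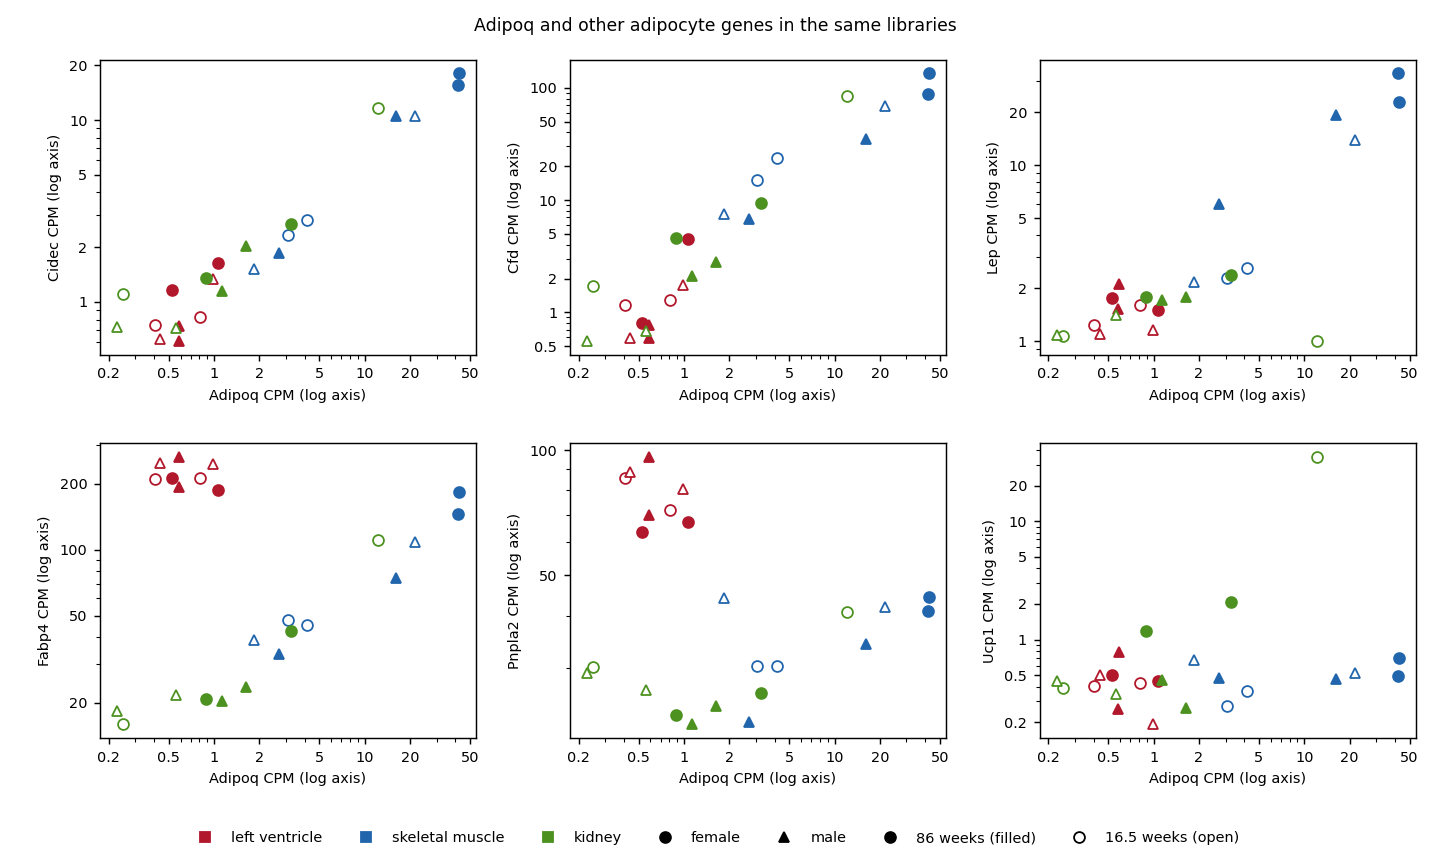
CPM of Cidec, Cfd, Lep, Fabp4, Pnpla2 and Ucp1 against CPM of Adipoq in each of the 24 libraries, both axes logarithmic, coloured by tissue. In muscle Cidec lies along a line with Adipoq (r = 0.995 on the log2 scale), Lep in kidney stays between 0.997 and 2.38 CPM over the whole range of Adipoq, and Pnpla2 in muscle has r = 0.551 over both ages.

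A mouse with a high level in one tissue was not shown to have a high level in another. Over the 8 mice the log2 level of Adipoq gave r = 0.254 and rho = 0.381 for muscle and kidney, r = 0.135 and rho = 0.0714 for left ventricle and kidney, and r = −0.0475 and rho = −0.0238 for muscle and left ventricle (two-sided exact permutation p = 0.550, 0.752 and 0.912 for r, each 0.912 after adjustment over the 3). For rho the exact p-values were 0.360, 0.882 and 0.977. Without the 2 mice farthest from the median, r was 0.171, 0.918 and −0.481. Male 20 at 16.5 weeks, for example, held 21.7 CPM of Adipoq in muscle and 0.440 CPM in left ventricle.

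The pattern most like that of Adipoq was then sought over all 16032 genes at a mean of at least 1 CPM in the 24 libraries, by the correlation of log2 CPM after centring within each tissue. Outside the 10, the 8 genes with the highest values were Rbp4, a carrier of retinol (0.912), Acvr1c, a receptor of the activin family (0.883), Fasn, the fatty acid synthase (0.872), Hp, haptoglobin (0.868), Prkar2b, a regulatory subunit of protein kinase A (0.865), Acaca, an acetyl-CoA carboxylase (0.865), Ntrk2, a neurotrophin receptor (0.861), and Pparg, the nuclear receptor that drives adipocyte differentiation (0.857). Among the 10, Plin1 had 0.959, Cidec 0.948, Fabp4 0.916, Cfd 0.904, Retn 0.869, Plin4 0.749, Lep 0.652, Ucp1 0.570 and Pnpla2 0.389. These values are descriptions over libraries that share a mouse in groups of 3. Within left ventricle alone r was 0.0673 for Fasn, 0.202 for Prkar2b, 0.201 for Acaca and 0.437 for Rbp4, and among the 10 it was −0.205 for Fabp4 and −0.145 for Retn. Within muscle the 8 genes had r between 0.812 and 0.975, and within kidney between 0.791 and 0.986.

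The kidney of female 15 at 16.5 weeks had the highest level of the 8 kidneys for 9 of the 10 genes, and the lowest for Lep. Its Cfd was 84.2 CPM, against 0.551 to 9.49 CPM in the other 7 kidneys, and its Ucp1 was 35.1 CPM, against 0.264 to 2.07 CPM. Its Adipoq was 12.2 CPM, against 0.228 to 3.24 CPM, and its Fabp4 was 110.4 CPM, against 16.0 to 42.4 CPM. Set over the median of the other 7, it stood at 79.2 times for Ucp1, 39.8 for Cfd, 13.8 for Adipoq, 10.1 for Cidec, 8.28 for Plin1, 5.89 for Retn, 5.31 for Fabp4, 3.63 for Plin4, 1.57 for Pnpla2 and 0.582 for Lep. Of the 23 further genes of adipocyte identity and lipid synthesis, 17 were highest in this kidney, with a median ratio of 2.52. Fasn was 572.7 CPM, against 74.0 to 176.1 CPM in the others, and Thrsp, a regulator of lipid synthesis, was 34.2 CPM, against 1.66 to 7.89 CPM. Of the 12 thermogenic genes 7 were highest there, including Dio2, the enzyme that activates thyroid hormone, at 9.96 CPM. Of the 14 droplet and lipolysis genes 5 were highest there, including Cidea at 16.3 CPM, against 0.367 to 1.62 CPM in the others. Of the mesothelial markers 4 of 6 were highest in this kidney, and of the receptors of leptin and adiponectin 3 of 4. The counts were 0 of 12 endothelial, 1 of 8 macrophage and 1 of 9 adipocyte progenitor markers, and 1 of 6 other secreted factors of fat. The share of all genes that were highest in this kidney is not given here. Summed kidney markers were 13780 CPM in it, the lowest of the 16.5-week kidneys, which reached 15350 CPM. The 86-week kidneys lay between 9657 and 14180 CPM. The part of fat or mesothelium in this library was not tested.

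**Figure D4:**
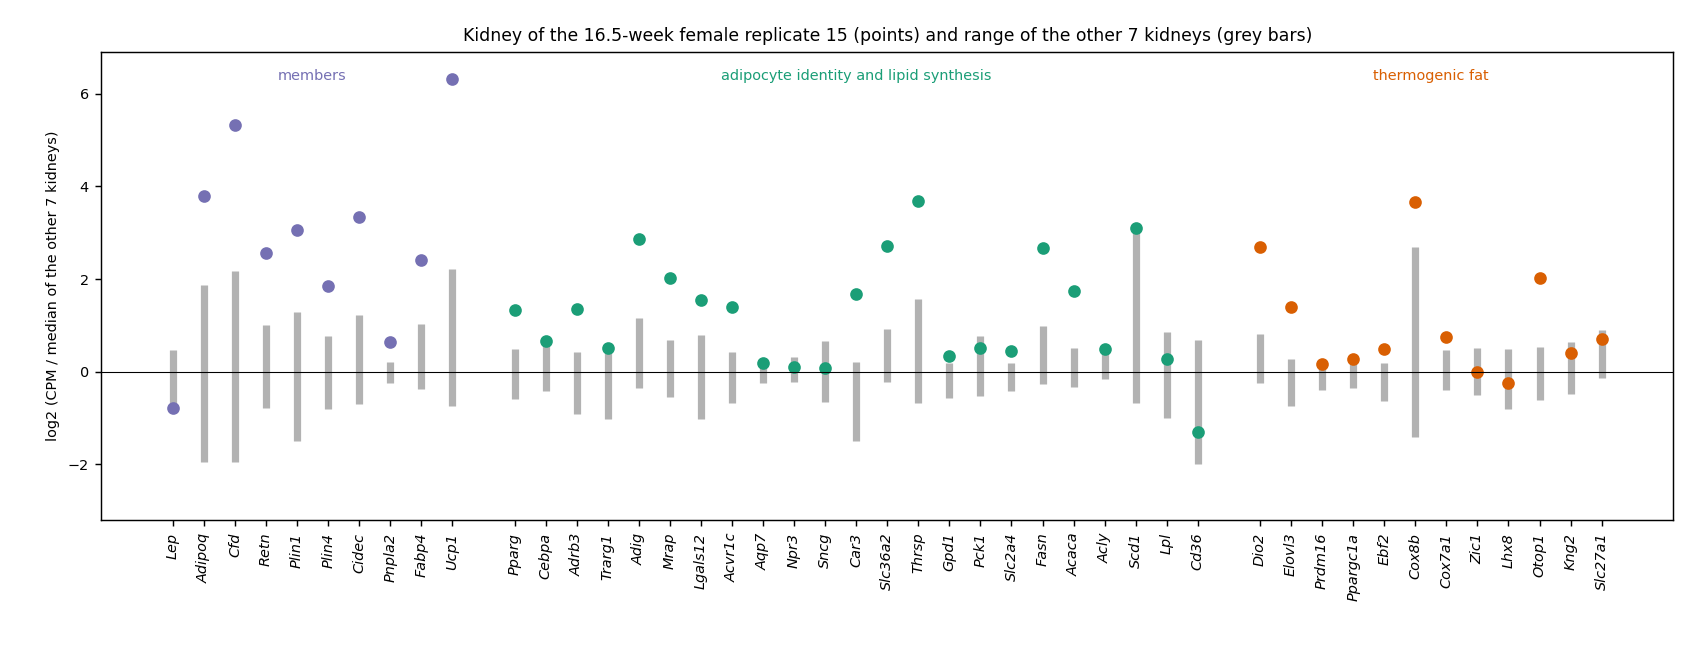
Log2 of the CPM in the kidney of female 15 at 16.5 weeks over the median of the other 7 kidneys, one point per gene, with a grey bar for the range of those 7 kidneys, for the 10 genes and the lists of adipocyte identity and thermogenic genes. Points for 9 of the 10 genes lie above their bars, Ucp1 (79.2 times the median) farthest, and Lep (0.582 times) lies below its bar.

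The question of age was tested within each tissue, with sex in the model. In skeletal muscle 0 of the 10 passed with all 8 libraries, and mice of one age differed widely. Lep was 22.8, 33.1, 19.2 and 6.03 CPM at 86 weeks (females 11 and 12, males 14 and 17), against 2.29, 2.61, 2.18 and 13.9 CPM at 16.5 weeks (females 14 and 15, males 19 and 20). Adipoq was 42.2, 41.5, 16.1 and 2.696 CPM at 86 weeks, against 3.08, 4.15, 1.85 and 21.7 CPM at 16.5 weeks. In both genes 3 old muscles were high and male 17 was low, while 3 young muscles were low and male 20 was high, so the ages overlapped. The log2 difference, 86 minus 16.5 weeks, was 2.08 ± 0.63 for Lep and 1.61 ± 0.88 for Adipoq (adjusted p = 0.672 and 0.939).

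Plin1 was 43.8, 32.4, 18.2 and 5.51 CPM in 86-week muscle, against 3.77, 3.89, 3.51 and 28.8 CPM at 16.5 weeks, and Cidec was 18.1, 15.7, 10.5 and 1.85 CPM, against 2.34, 2.82, 1.52 and 10.6 CPM. Cfd was 134.1, 88.5, 35.0 and 6.74 CPM at 86 weeks, against 15.1, 23.8, 7.58 and 69.0 CPM at 16.5 weeks. The same 2 males, 17 and 20, lay on the far side of their age group in each of these genes. The differences were 1.43 ± 0.79 for Plin1, 1.38 ± 0.65 for Cidec, 1.15 ± 0.65 for Retn, 0.84 ± 0.79 for Cfd and 0.72 ± 0.42 for Fabp4. Plin4 and Pnpla2 differed by −0.05 ± 0.16 and −0.03 ± 0.18, and Ucp1 by 0.29 ± 0.32. Of the 10 differences 8 were positive, with a median of 0.992 against 0.017 for all 43711 genes tested. The edgeR count of 0 compares with 0.0183% of all genes passing, with 1 of the 10 at an unadjusted p under 0.05 (Lep), and with 0 by DESeq2 and 0 by limma-voom.

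Without the muscle of male 20 at 16.5 weeks, 4 of the 10 passed: Lep at 3.14 ± 0.34, Adipoq at 3.10 ± 0.46, Plin1 at 2.7 ± 0.37 and Retn at 2.37 ± 0.26 (adjusted p = 0.00868, 0.0257, 0.0183 and 0.00868). In that fit 0.0923% of all genes passed. Cidec at 2.46 and Cfd at 2.1 did not pass (adjusted p = 0.0513 and 0.120). Leaving out any of the other 7 muscles, 0 of the 10 passed. The result thus turned on 1 library, and no label sets that library apart.

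Of the 23 further genes of adipocyte identity and lipid synthesis, 0 passed for age in muscle by edgeR, DESeq2 or limma-voom, with 8 at an unadjusted p under 0.05. Their differences were positive in 20 of 23, with a median of 0.683, and Npr3, the clearance receptor of natriuretic peptides, differed by 1.57 ± 0.49. Summed over that list, muscle held 3163, 3296, 1411 and 904.5 CPM at 86 weeks, against 1407, 1939, 1543 and 2108 CPM at 16.5 weeks. The 2 old females had the highest sums. Markers of adipocyte progenitors were positive in 5 of 9 (median 0.048), of capillary endothelium in 1 of 12 (median −0.232) and of macrophages in 8 of 8 (median 0.351), with 0 passing in each list. Summed skeletal fibre markers were lowest in male 17 at 86 weeks, at 117700 CPM. The part of these cell types in the differences was not tested.

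In kidney the age comparison also gave 0 of 10, against 0.112% of all 44572 genes, with 3 at an unadjusted p under 0.05 (Lep, Pnpla2 and Ucp1) and 0 by DESeq2 or limma-voom. Lep was 1.78, 2.38, 1.79 and 1.71 CPM at 86 weeks, against 1.07, 0.997, 1.08 and 1.40 CPM at 16.5 weeks. Every old kidney lay above every young one, as for 1.88% of all genes, and the difference was 0.79 ± 0.19 (adjusted p = 0.194). Pnpla2 was 23.1, 26.1, 24.3 and 21.9 CPM at 86 weeks, against 30.2, 40.9, 29.2 and 26.5 CPM at 16.5 weeks. Every old kidney lay below every young one, as for 1.64% of all genes, and the difference was −0.36 ± 0.11 (adjusted p = 0.376). Both kept their sign in each of the 8 fits that left out a library, between 0.67 and 0.92 for Lep and between −0.43 and −0.24 for Pnpla2, and neither passed in any.

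For 7 of the other 8 genes, all but Plin4, the sign of the age difference in kidney turned when female 15 was left out. Adipoq was 0.883, 3.24, 1.64 and 1.13 CPM at 86 weeks, against 0.249, 12.2, 0.228 and 0.561 CPM at 16.5 weeks, a difference of −0.09 ± 0.91 with all libraries and of 2.29 ± 0.46 without female 15 (adjusted p = 0.0977). Cfd was 4.60, 9.49, 2.83 and 2.12 CPM at 86 weeks, against 1.72, 84.2, 0.551 and 0.676 CPM at 16.5 weeks. Apart from female 15, every young kidney lay below every old one for both genes. That separation was seen only with this library set aside, and the share of all genes so separated is not given here. The Cfd difference was −0.70 ± 1.06 with all libraries and 2.06 ± 0.24 without female 15 (adjusted p = 0.00692), and it was the 1 gene of the 10 to pass in that fit, where 0.0536% of all genes passed. Plin1 was −0.10 ± 0.69 with all libraries and 1.54 ± 0.29 without (adjusted p = 0.0712), and Ucp1 was −2.27 ± 0.99 and 0.77. With all libraries 2 of the 10 differences were positive, with a median of −0.35 against 0.023 for all genes, and without female 15 there were 9. Of the 23 further adipocyte genes 0 passed for age in kidney by edgeR, with 4 at an unadjusted p under 0.05. By DESeq2 1 passed and by limma-voom 1, the share of all genes passing by those tools not being given here. The nearest by edgeR was Lpl, at −0.82 ± 0.15 (adjusted p = 0.0515).

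**Figure D5:**
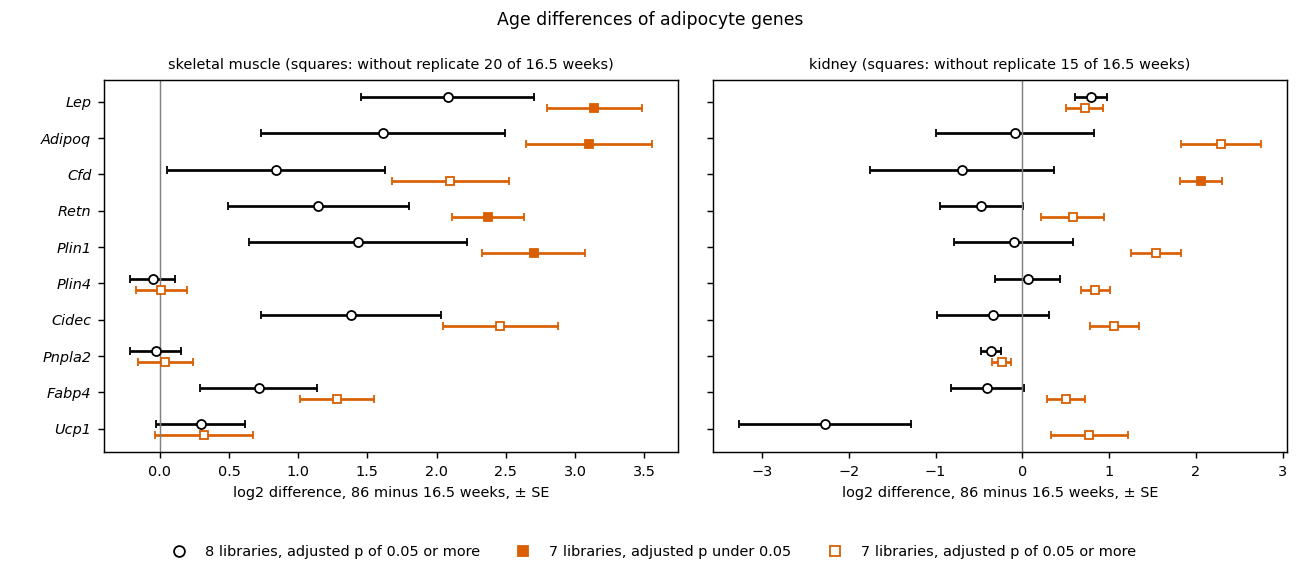
Log2 difference, 86 minus 16.5 weeks, with its SE for the 10 genes in skeletal muscle and in kidney, as circles for all 8 libraries and squares without male 20 (muscle) or female 15 (kidney) at 16.5 weeks; open symbols have an adjusted p of 0.05 or more. In muscle Lep moves to 3.14 and Adipoq to 3.10 without male 20, and in kidney Cfd moves to 2.06 without female 15.

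In left ventricle no age difference of the 10 genes exceeded 0.61 in size with all libraries. Leaving out 1 library took Cfd to between −0.72 and 0.8 and Plin1 to between 0.49 and 0.81. By edgeR 0 of 10 passed, against 0.0741% of all 44546 genes, with 1 at an unadjusted p under 0.05 and 0 by DESeq2 or limma-voom. That gene was Plin1, at 3.23, 2.83, 1.60 and 1.86 CPM at 86 weeks, against 1.43, 1.72, 1.70 and 1.16 CPM at 16.5 weeks, overlapping between ages and differing by 0.61 ± 0.21 (adjusted p = 1.0). Lep differed by 0.44 ± 0.22, Fabp4 by −0.10 ± 0.12, Plin4 by −0.14 ± 0.13 and Pnpla2 by −0.15 ± 0.12. Differences were positive in 7 of 10, with a median of 0.109 against 0.007 for all genes. Of the 23 further adipocyte genes 1 passed, Npr3, which heart also makes. It was 38.0, 32.7, 43.7 and 36.5 CPM at 86 weeks, against 23.8, 22.8, 25.8 and 23.6 CPM at 16.5 weeks, with no overlap, a rise of 0.65 ± 0.11 (adjusted p = 0.0199).

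Whether the age difference itself varied between tissues was tested over all 24 libraries. By edgeR 0 of the 10 passed, against 0.0319% of all 46984 genes, with 0 at an unadjusted p under 0.05 and 0 by DESeq2 or limma-voom. The gene nearest to passing was Lep (adjusted p = 1.0). Without the mouse of male 20, Lep passed (adjusted p = 0.0120) and the other 9 did not, where 0.0351% of all genes passed. The larger muscle difference of Lep was thus not shown to exceed those of kidney and left ventricle with all mice in the fit.

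The proportions among the genes were also compared between ages, as the log2 ratio of each to Adipoq, in 27 exact permutation tests of 4 against 4 mice, whose smallest two-sided p is 0.0286. A single ratio at that smallest p could not pass after adjustment over the 27, so the ratios are given as values. The single ratio without overlap was Cfd over Adipoq in muscle, at 1.30 ± 0.27 at 86 weeks and 2.12 ± 0.36 at 16.5 weeks (SD, n = 4 each; exact permutation p = 0.0286, adjusted p = 0.631). Lep over Adipoq in muscle was 0.05 ± 0.87 at 86 weeks and −0.37 ± 0.42 at 16.5 weeks (exact permutation p = 0.457).

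Sexes were compared with age in the model, as female minus male. In kidney all 10 differences were positive, and 1 of 10 passed, Ucp1, against 7.58% of all genes. Ucp1 was 1.18, 2.07, 0.391 and 35.1 CPM in females (11, 12, 14 and 15), against 0.264, 0.456, 0.443 and 0.344 CPM in males (14, 17, 19 and 20), a difference of 4.01 ± 1.01 (adjusted p = 0.0239). Female 14 overlapped the males. Without female 15 it was 1.43 ± 0.42 (adjusted p = 0.0666), and Cfd was then the 1 gene that passed, at 1.51 ± 0.22 (adjusted p = 6.96e-04; 5.79% of all genes passed), having been 3.61 ± 1.06 with all libraries (adjusted p = 0.0537). Without female 14 at 16.5 weeks 6 of the 10 passed in kidney, where 6.39% of all genes passed, and without young male 19 or 20 0 passed. Lep differed by 0.02 ± 0.19. In left ventricle 0 of 10 passed by edgeR, against 0.871% of all genes, with 2 at an unadjusted p under 0.05 (Cfd 1.03 ± 0.48, or 0.15 without old female 11, and Plin1 0.51 ± 0.21). In muscle 0 of 10 passed, against 1.36% of all genes, with 1 at an unadjusted p under 0.05 (Plin4 0.53 ± 0.16). DESeq2 and limma-voom also gave 0 in both tissues. Without the muscle of male 20, 2 passed, where 1.54% of all genes did, Retn at 2.15 and Cfd at 1.96 (adjusted p = 0.00189 and 0.0401).

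The age difference was last compared between the sexes, as that of females minus that of males, with 2 mice per age and sex. In muscle all 10 values were positive, with 8 at an unadjusted p under 0.05, but 0 passed by edgeR, DESeq2 or limma-voom, as did 0 of all 43711 genes (0% passing). The share of all genes at that unadjusted threshold is not given here, so the 8 are a description. Adipoq averaged 41.9 CPM in 86-week and 3.61 CPM in 16.5-week females, and 9.42 CPM in 86-week and 11.8 CPM in 16.5-week males, a value of 3.79 ± 1.16 (adjusted p = 0.626). Lep averaged 28.0 CPM in 86-week and 2.45 CPM in 16.5-week females, and 12.6 CPM in 86-week and 8.02 CPM in 16.5-week males, a value of 2.79 ± 0.88. The old and young females were far apart in both genes, while each male group held 1 high and 1 low muscle. Plin1 had 3.68 ± 0.96, Retn 3.05 ± 0.88, Fabp4 2.18 ± 0.54 and Pnpla2 1.02 ± 0.24 (adjusted p = 0.425). Without male 20 the 10 values lay between 0.13 and 1.49 and 0 passed, where 0.0429% of all genes did. Without male 19 of the same group 5 passed, where 0.101% of all genes did: Plin1 at 4.53, Adipoq at 4.68, Retn at 3.91, Lep at 3.59 and Fabp4 at 2.75 (adjusted p = 0.0161, 0.0462, 0.00886, 0.0462 and 0.0289). The value depended on which of those 2 young males stood for the group.

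In kidney 0 of 10 passed for age by sex, against 0.0247% of all genes, with 4 at an unadjusted p under 0.05 and 0 by DESeq2 or limma-voom. Cfd had −4.61 ± 1.46 with all libraries (adjusted p = 0.952) and 0.04 without female 15, and without female 14, the other young female, 6 genes passed with Cfd at −5.58, where 0.0687% of all genes passed. In left ventricle 0 of 10 passed by edgeR, against 0.0157%, with 2 at an unadjusted p under 0.05, Cfd at 1.91 ± 0.81 and Cidec at 1.37 ± 0.59, and 0 by DESeq2 or limma-voom. Leaving out 1 library took Cfd to between 0.19 and 2.68, lowest without old female 11, and Cidec to between 0.71 and 1.83, lowest without young male 19.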

How the data were processed

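The deposited table held whole-number counts per gene, made by the authors; per the submitters' processing notes STAR 2.7.6a, StringTie 2.1.1 and GRCm38.p6 were used. How counts were taken, the strand setting and the annotation release are not given in the sources used here. Of 55401 gene identifiers, 55141 matched GENCODE M21 without version, which gave coordinates and lengths. Replicates are separate mice per the labels.

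Counts were filtered (filterByExpr), scaled by TMM and tested with edgeR 4.0.16 (quasi-likelihood F-test, two-sided, Benjamini-Hochberg threshold 0.05 over all genes tested) in R 4.3.3. Age and sex were fitted per tissue, with 5 residual degrees of freedom. Tissue contrasts used all 24 libraries, with 9 coefficients and 15 residual degrees of freedom. The fits were tested on simulated data. DESeq2 1.42.0 (Wald test), limma 3.58.1 (voom), DESeq2 size factors, library size alone, no filter, no covariate, Adipoq as covariate, the mouse as block and each mouse left out were alternatives. Exact permutation tests used scipy 1.17.1 on log2 CPM with a prior count of 2.

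The numbers of mice pair the tissues, since the labels name the mouse. Deviations of libraries of the same mouse correlated at a median of 0.124 (−0.046 to 0.382, 24 pairs), against −0.047 in 72 pairs of different mice, over 19703 genes.

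The 10 genes and the lists were chosen with earlier results of these data known. All 10 are named. From each other list up to 4 passing genes with the largest differences could be named, or the 1 or 2 with the smallest p where none passed. From the ranking by likeness to Adipoq the 8 highest with a gene symbol were named, apart from the 10. Dio2, Cidea, Fasn and Thrsp in the kidney of female 15 were chosen after their values were seen. Counts of genes at an unadjusted p under 0.05 are descriptions, since the share of all genes at that threshold is not given here. The 4 mice per group limit the precision.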

Additional observations from a re-analysis of the deposited data

Results flagged for a closer look

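Within each group of 4 libraries, a library whose distance from its nearest neighbour exceeded Dixon's critical value for 4, as a share of the group's whole range, was set aside for a closer look. For normally distributed values chance alone does so in about 1 in 20 groups, and 11 of the 60 combinations of gene and group met it. Genes of a group share the same libraries, so the 60 are not independent and the rate is no yardstick for the count. In the kidneys at 16.5 weeks female 15 stood far above the other 3 for Ucp1 (35.1 CPM), Fabp4 (110.4 CPM), Plin4 (24.7 CPM), Plin1 (18.3 CPM) and Cidec (11.6 CPM). In the muscles at 16.5 weeks male 20 stood far above the other 3 for Plin1 (28.8 CPM) and Lep (13.9 CPM). Female 11 at 86 weeks stood above the rest of its group in left ventricle for Cfd (4.52 CPM) and Adipoq (1.06 CPM), and in muscle for Ucp1 (0.698 CPM). Female 12 at 86 weeks stood above the other old kidneys for Lep (2.38 CPM).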

How the results depend on the processing

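With another scaling, filter or tool, the number of passing genes stayed within 1.5 times of that reported in every comparison except 2. For sex in kidney 2 passed with DESeq2 size factors, 2 with DESeq2, 0 with no filter and 0 with limma-voom, and for left ventricle over kidney 3 passed with limma-voom. Leaving out 1 mouse gave 0 to 4 passing genes for age in muscle, 0 to 1 for age in kidney, 0 to 6 for sex in kidney, 0 to 2 for sex in muscle, 0 to 5 for age by sex in muscle, 0 to 6 for age by sex in kidney, 3 to 7 for left ventricle over kidney (3 without only the kidney of female 15) and 0 to 1 for age differing between tissues. With the mouse as a replicate block 8, 9 and 4 genes passed for muscle over left ventricle, muscle over kidney and left ventricle over kidney, and 0 for age differing between tissues. The counts in this paragraph stand without the share of all genes passing, except where the Results name it. No paired analysis was possible because the ages and sexes hold different mice, for the tests of age and sex. DESeq2 size factors moved the median of all genes by at most 0.076.

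Signs changed for differences that did not pass, and those given here are not all of them. For age in kidney, leaving out 1 library gave −0.67 to 2.29 for Adipoq (0.78 by limma-voom, 0.11 by DESeq2), −0.55 to 1.54 for Plin1 (0.38 by limma-voom), −1.41 to 2.06 for Cfd, −0.76 to 1.06 for Cidec, −0.83 to 0.58 for Retn, −0.67 to 0.50 for Fabp4, −2.79 to 0.77 for Ucp1 and −0.17 to 0.84 for Plin4 (−0.15 with no covariate, −0.11 with Adipoq as covariate). For age in muscle it gave −0.19 to 0.10 for Plin4 and −0.16 to 0.18 for Pnpla2, and Fabp4 was −0.14 with Adipoq as covariate. By sex in muscle it gave −0.05 to 1.96 for Cfd, −0.83 to 0.77 for Lep, −0.59 to 1.7 for Adipoq, −0.96 to 1.05 for Plin1 and −0.48 to 1.18 for Cidec. By sex in kidney it gave −0.10 to 0.14 for Lep (−0.00082 with DESeq2 size factors). By age and sex in kidney it gave −5.58 to 0.04 for Cfd, −4.56 to 1.23 for Adipoq, −3.55 to 0.59 for Plin1 and −4.28 to 2.22 for Ucp1. Over all tissues it gave −0.10 to 0.11 for Lep (−0.01 with DESeq2 size factors, −0.01 by DESeq2) and −1.17 to 0.05 for Plin1 in left ventricle over kidney, and −0.06 to 0.45 for Ucp1 in muscle over left ventricle. The cause was not tested. Leaving out the single kidney of female 15, and the comparison with olfactory receptor genes, were chosen after seeing the data.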

Other observations

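In kidney, several lipid genes outside the 10 differed between the sexes. Of the 23 genes of adipocyte identity and lipid synthesis, 5 were higher and 2 lower in females, where 7.58% of all genes passed. Scd1, which desaturates fatty acids, was 463.5, 1018, 573.4 and 1041 CPM in females (11, 12, 14 and 15), against 121.4, 76.1, 78.8 and 108.8 CPM in males (14, 17, 19 and 20), with no overlap and a log2 difference, female minus male, of 3.02 ± 0.25 (adjusted p = 1.88e-06, edgeR). Cd36, which takes up fatty acids, was 71.3, 132.5, 93.2 and 114.9 CPM in females, against 282.2, 293.8, 452.5 and 399.3 CPM in males, again with no overlap, a difference of −1.75 ± 0.17 (adjusted p = 7.39e-06). Lepr was 12.1, 13.5, 10.2 and 14.3 CPM in females, against 6.4, 6.70, 7.08 and 11.97 CPM in males, overlapping through young male 20, a difference of 0.69 ± 0.17 (adjusted p = 0.0213).

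In muscle, the age difference of the 23 genes was more positive in females than in males for 23 of 23, with a median of 1.741 against −0.064 for all genes and 22 at an unadjusted p under 0.05. By edgeR 0 of them passed, as did 0 of all 43711 genes, by DESeq2 3 and by limma-voom 0. The share of all genes at that unadjusted threshold, or passing by DESeq2, is not given here. All 23 values come from the same 8 libraries, so these counts are a description. The 23 values are given with all libraries only, with 2 mice per age and sex. For the 10 genes the same comparison fell to between 0.13 and 1.49 without young male 20. Adrb3, the adrenergic receptor of fat cells, was 8.31 and 5.59 CPM in old and 1.38 and 1.41 CPM in young females, and 1.55 and 1.59 CPM in old and 1.74 and 4.39 CPM in young males, a value of 3.17 ± 0.51 (adjusted p = 0.197, edgeR).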
